A study of Mus musculus with 6 samples.

Results

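The genes described here are 10 cytokine genes: Il1a, Il1b, Il1rn, Il18 and Il33 of the interleukin-1 family, Il6, Il11 and Lif of the interleukin-6 family, and Tslp and Tnf, which belong to neither family. They were chosen by symbol, and all 10 were found among the 23644 genes of the deposited table. Transcripts were counted by RNA-seq in the mouse mammary carcinoma line 4T1, with 3 libraries of control cells, labelled wild type, and 3 libraries of cells with a Carmil3 knockout. Carmil3 belongs to the CARMIL proteins, which bind and regulate actin capping protein. Both groups were grown in the same medium with fetal bovine serum, without any labelled treatment. Per the labels' protocols the knockout cells were clones grown from single cells. The labels name neither the number of clones nor separate cultures for the replicates, and do not say whether control cells were cloned. A p-value here thus reflects only the spread among the libraries, which may be technical. The comparison asks how the loss of Carmil3 goes with transcript levels in these cells. Levels are in FPKM, which scales reads by exon length and by depth, so they can be compared between genes.

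Interleukin-1 family cytokines are early signals of injury and infection. Interleukin-1 alpha and beta bind the same receptor, the antagonist encoded by Il1rn competes for it, and interleukins 18 and 33 have receptors of their own in the same family. The interleukin-6 family shares the receptor subunit gp130, encoded by Il6st, and signals through JAK kinases and STAT3. In mammary tumours such cytokines are known as signals between tumour cells, myeloid cells and stroma.

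The spacing of the deposited values gave read totals between 17778451 and 19046076 per library, on a relative scale. Carmil3 itself was listed at 0.0117 to 0.0360 FPKM in control and at 0 to 0.0241 FPKM in knockout libraries, too low for its level to check the labels. On the principal component with 11.8% of the variance knockout replicate 3 stood apart from the other libraries. Of 9 leukocyte markers listed, 8 were below 1 FPKM in every library, and their summed level was 1.26 to 1.64 FPKM in control and 1.53 to 1.90 FPKM in knockout libraries. Ptprc, which encodes the pan-leukocyte antigen CD45, averaged 0.00305 and 0.00100 FPKM, and the macrophage gene Adgre1 averaged 0.00578 and 0.0113 FPKM. The marker that reached 1 FPKM, and the largest part of that sum, was Lyz2. It averaged 0.851 ± 0.210 FPKM in control and 1.08 ± 0.230 FPKM in knockout libraries (SD, n = 3), and the groups overlapped. Markers of stroma and endothelium summed to 11.46 to 12.03 FPKM in control and 17.9 to 18.4 FPKM in knockout libraries, most of it Pdgfra. Of the 2 that were tested, Pdgfra rose from 10.1 ± 0.135 to 17.6 ± 0.272 FPKM, and the collagen gene Col1a1, which entered the fit only through the control libraries, was at 1.40, 1.36 and 1.74 FPKM in control and 0.264, 0.296 and 0.252 FPKM in knockout libraries. The part of these markers in the results below was not tested. The 7 tested mammary epithelial markers were lower in knockout cells, 3 of them (Epcam, Krt14 and Cdh1) having entered the fit only through the control libraries, with Krt8 at 470 ± 19.6 and 217 ± 9.25 FPKM (SD, n = 3).

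The promoter windows of 5 of the cytokine genes are shown: the 4 genes below the expression filter whose knockout libraries all lay above the control libraries, and Lif, whose knockout libraries all lay below. The knockout libraries of Il18 and Tslp were also all above. Il18 has a window with 1 TATA match that is not printed, and no window of Tslp was searched. Each window runs from 250 bases before to 50 bases after a RefSeq start on GRCm38.p6, 5′ to 3′ on the gene's strand. Capitals mark matches to 6 motifs searched on both strands: NF-kB, AP-1, CRE, C/EBP, STAT and TATA.
Il1a promoter, chr2:129309923-129310222, minus strand: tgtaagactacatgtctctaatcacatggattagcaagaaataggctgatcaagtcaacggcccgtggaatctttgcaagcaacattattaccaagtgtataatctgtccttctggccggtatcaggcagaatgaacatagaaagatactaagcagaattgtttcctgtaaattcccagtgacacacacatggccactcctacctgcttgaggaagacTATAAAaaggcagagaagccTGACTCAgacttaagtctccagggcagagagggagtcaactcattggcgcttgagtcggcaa
Il1b promoter, chr2:129371090-129371389, minus strand: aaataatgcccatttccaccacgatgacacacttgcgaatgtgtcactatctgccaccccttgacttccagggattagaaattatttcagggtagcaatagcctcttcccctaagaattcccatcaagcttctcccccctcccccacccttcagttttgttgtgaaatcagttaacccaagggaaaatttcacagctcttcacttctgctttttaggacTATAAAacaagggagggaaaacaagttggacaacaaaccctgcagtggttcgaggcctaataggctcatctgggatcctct
Il33 promoter, chr19:29945540-29945839, plus strand: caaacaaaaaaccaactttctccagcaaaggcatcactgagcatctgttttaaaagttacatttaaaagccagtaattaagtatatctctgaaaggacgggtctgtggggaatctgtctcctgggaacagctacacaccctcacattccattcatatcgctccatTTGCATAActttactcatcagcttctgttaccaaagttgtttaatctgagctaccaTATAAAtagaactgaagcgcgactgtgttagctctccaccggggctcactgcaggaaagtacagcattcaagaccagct
Il6 promoter, chr5:30012864-30013163, plus strand: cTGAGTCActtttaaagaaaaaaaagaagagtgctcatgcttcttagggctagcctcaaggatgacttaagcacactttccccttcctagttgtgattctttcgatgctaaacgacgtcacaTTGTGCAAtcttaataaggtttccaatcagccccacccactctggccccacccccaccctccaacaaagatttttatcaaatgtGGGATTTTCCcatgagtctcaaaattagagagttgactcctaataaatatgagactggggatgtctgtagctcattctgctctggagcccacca
Lif promoter, chr11:4257318-4257617, plus strand: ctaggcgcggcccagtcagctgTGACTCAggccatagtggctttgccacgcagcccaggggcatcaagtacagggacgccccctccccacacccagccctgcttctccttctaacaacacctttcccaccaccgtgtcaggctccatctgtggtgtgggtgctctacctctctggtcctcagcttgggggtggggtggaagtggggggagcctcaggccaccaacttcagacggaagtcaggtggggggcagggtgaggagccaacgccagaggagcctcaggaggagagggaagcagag
In the Il6 window the capitals mark an AP-1 match, a C/EBP match and the NF-kB match GGGATTTTCC, in that order. The Il1a window holds a TATA match and an AP-1 match, Il1b a TATA match, the Il33 window shown a C/EBP and a TATA match, and Lif an AP-1 match. No 2 matches overlapped. Il33 has a second window, at a start further upstream, with 1 match. Windows were found for 9 of the 10 genes. The AP-1 motif, searched as TGANTCA, was present in windows of 5 genes (Il1a, Il1rn, Il6, Il11 and Lif), where 7.81% of all 32851 windows hold it. The TATA motif, searched as TATAAA, was found for 6 genes against 13.6% of all windows. Il1a, Il1b, Il33 and Tnf had a match on the gene's strand, first base at -32, -31, -29 and -29 from the start. The match of Il18 lay on the other strand at -175, and that of Il1rn on the other strand at 14, after the start. The C/EBP motif, searched as TTGCNNAA, was found for 2 genes against 10.8% of all windows. NF-kB was found for 1 gene against 4.51% of all windows. The CRE motif TGACGTCA was found for none of the genes and in 1.79% of all windows. The STAT motif TTCNNNGAA was also found for none, and 8.3% of all windows hold it. A gene with several starts has several chances of a match, so the counts and the shares are not on the same footing. A match describes the letters and does not show that a factor binds there.

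The 10 transcripts covered a wide range of levels in these cells, and a single gene made up most of their sum. Tslp had rank 238 by mean FPKM among the 23644 listed genes in control cells and rank 179 in knockout cells. Its share of the summed FPKM of the 10 genes was between 92.9% and 94.9% in every library. In control cells Lif followed at 8.87 ± 0.319 FPKM (SD, n = 3). Il18 and Il11 came next, near 1 FPKM, with ranges that overlapped each other. Il1a, Il33 and Il1b lay between 0.0560 and 0.189 FPKM in control libraries and could not be ordered beyond their spread. Tnf overlapped with Il1b and with Il6, and Il1rn was lowest. In knockout cells Il33 reached the level of Il11, with overlapping ranges. Il1b lay just below Il33 and overlapped with Il11 and with Il1a. Il1a lay below both Il33 and Il11. Without Tslp, the other 9 genes summed to between 10.9 and 12.04 FPKM in control and between 11.3 and 12.8 FPKM in knockout libraries, ranges that overlapped.

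**Figure D1:**
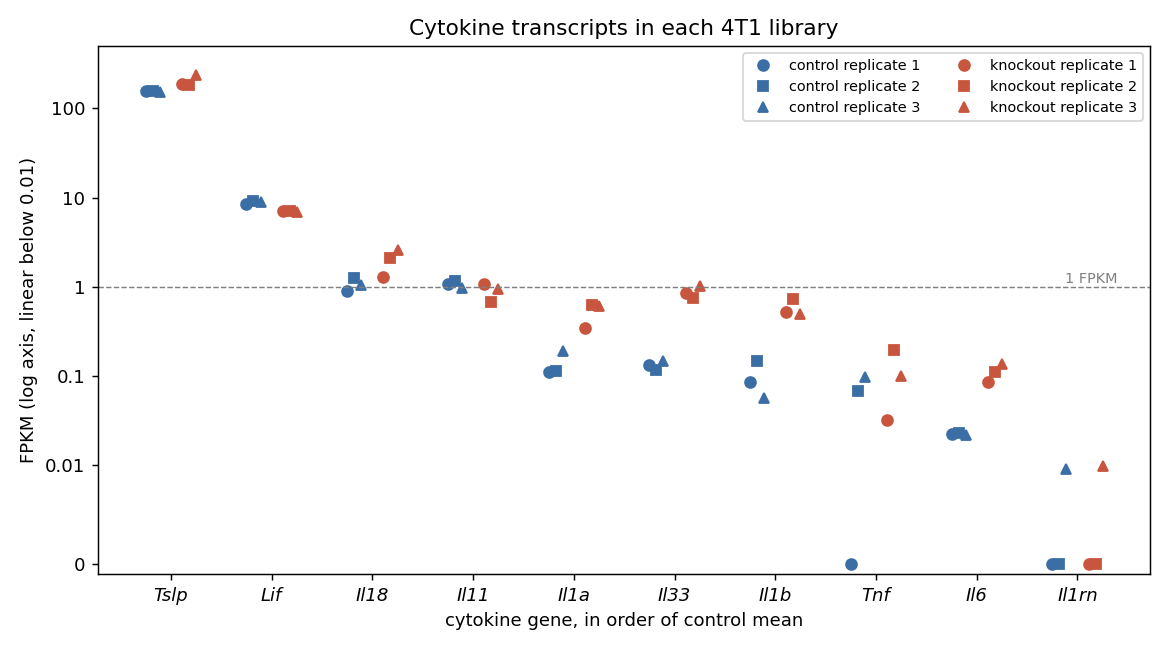
FPKM of the 10 cytokine genes in each of the 6 libraries, in order of the control mean, on a log axis that is linear below 0.01 FPKM; blue symbols are control and red symbols knockout libraries, and the dashed line marks 1 FPKM. Tslp stands far above the others, and the red symbols of Il1a, Il33, Il1b and Il6 lie clear above the blue ones.

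Il33, Il1b and Il1a, all close to the lower end of detection in control cells, were 6.62, 6.04 and 3.83 times as high by mean FPKM in knockout cells. These 3 genes, Il6, Tnf and Il1rn did not reach 1 FPKM in at least 3 libraries, so these 6 were left out of the fit across all genes. In 4 of the 6 the knockout libraries all lay above the control libraries, and over all genes below that filter 6.25% had this pattern. Among genes that passed the filter the groups did not overlap, in either direction, for 50.5%. The 6.25% is not split by read level, so it may not hold for genes with as many reads as these. The smallest p that an exact permutation test of 3 against 3 libraries can give is 0.1, so each gene's reads are given beside its FPKM.

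Il33 encodes a nuclear alarmin of barrier cells that signals through the receptor ST2 when released. On GRCm38 the gene (ENSMUSG00000024810) lies at chr19:29925114-29960718 on the plus strand. It measured 0.133, 0.117 and 0.148 FPKM in control replicates 1 to 3 and 0.855, 0.749 and 1.03 FPKM in knockout replicates 1 to 3. Behind these values were 7, 6 and 8 reads and 47, 40 and 54 reads. The lowest knockout library was several times the highest control library, and within each group the libraries were close to each other. The depth-scaled ratio of reads was 6.59, with a 95% exact interval of 4.15 to 10.98 that covers counting error only. The two-sided exact permutation test gave p = 0.1.

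Il1b encodes the secreted interleukin-1 beta, made as a precursor that caspase-1 cleaves. Its level was 0.0865, 0.147 and 0.0560 FPKM in the control libraries and 0.523, 0.737 and 0.491 FPKM in the knockout libraries, from 3, 5 and 2 reads and 19, 26 and 17 reads. All knockout values were above all control values, with the highest in knockout replicate 2. The ratio of reads was 6.09 (95% exact interval 3.10 to 13.3, counting error only; exact permutation p = 0.1, two-sided). Il1b (ENSMUSG00000027398) lies at chr2:129364570-129371139 on the minus strand of GRCm38 and shares 25 exon bases with the antisense gene Il1bos. Il1bos averaged 0.0615 ± 0.0121 FPKM in control cells and 0.174 ± 0.0807 FPKM with the knockout (SD, n = 3). No source used here gives the strand setting of the counting, so reads in the shared bases cannot be told apart.

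Il1a encodes interleukin-1 alpha, which is active as a precursor and on the cell surface. It measured 0.111, 0.114 and 0.189 FPKM in control and 0.346, 0.630 and 0.614 FPKM in knockout libraries, from 4, 4 and 7 reads and 13, 23 and 22 reads. The groups did not overlap, and knockout replicate 1 was the lowest of its group. The ratio of reads was 3.80 (95% exact interval 2.12 to 7.21, counting error only; exact permutation p = 0.1, two-sided). Il1a (ENSMUSG00000027399) neighbours Il1b, at chr2:129299610-129309972 on the minus strand, and shares 222 exon bases with the antisense gene Gm14023. Gm14023 was listed at 0.0611 ± 0.0292 FPKM in control cells and 0.0404 ± 0.0176 FPKM with the knockout (SD, n = 3).

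Il6 (ENSMUSG00000025746, chr5:30013114-30019981 on the plus strand) encodes interleukin-6, the cytokine that names the gp130 family. A single read was recovered in each control library, at 0.0227, 0.0232 and 0.0220 FPKM. All 3 values are under the level of 3 reads, which for this gene is 0.0649 to 0.0695 FPKM. Knockout libraries gave 4, 5 and 6 reads, at 0.0865, 0.111 and 0.136 FPKM. The knockout libraries were all higher, but the ratio of reads, 4.91, has a wide 95% exact interval of 1.39 to 26.5 for counting error only, and the exact permutation test gave p = 0.1 (two-sided).

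Tnf (ENSMUSG00000024401, chr17:35199381-35202007 on the minus strand) encodes tumour necrosis factor. It had 0, 2 and 3 reads in control and 1, 6 and 3 reads in knockout libraries, with means of 0.0555 ± 0.0502 and 0.110 ± 0.0833 FPKM (SD, n = 3). The groups overlapped, and a difference was not detectable at this depth (ratio of reads 1.96, 95% exact interval 0.612 to 7.32; exact permutation p = 0.4, two-sided). Il1rn, the antagonist gene (ENSMUSG00000026981, chr2:24336853-24351494 on the plus strand), had 1 read in control replicate 3, 1 read in knockout replicate 3 and none in the other libraries. Both groups were under the level of 3 reads, which for this gene is 0.0285 to 0.0305 FPKM, so no ratio is given. The ligand genes Il1a and Il1b thus had reads in every library, though Il1b had only 2 in control replicate 3, under the level of 3 reads. The antagonist gene had at most 1 read in any library.

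**Figure D2:**
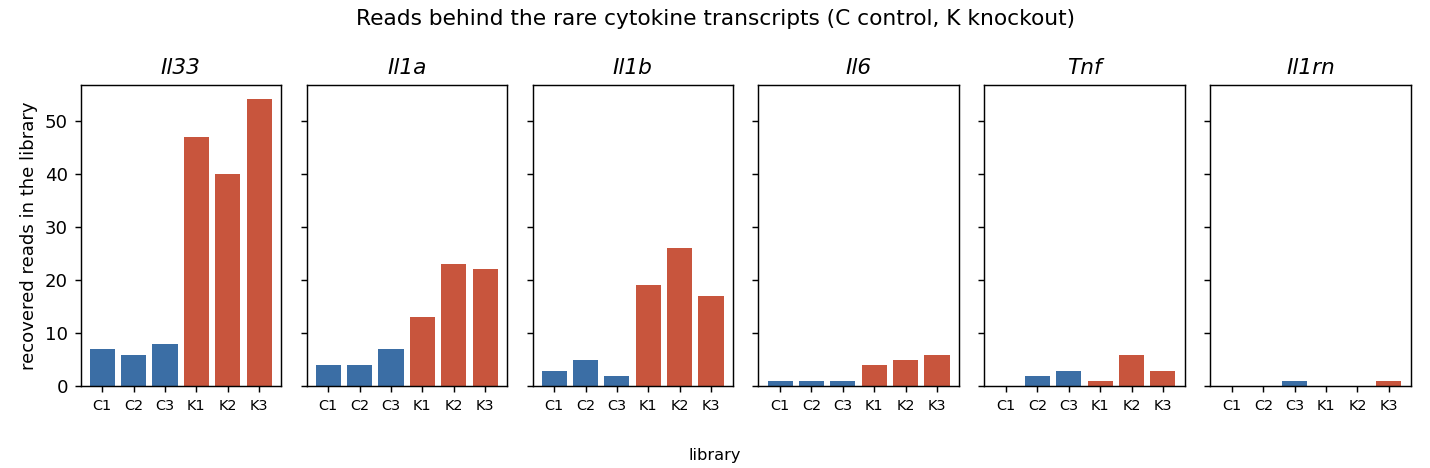
Bars give the number of recovered reads in each library (C1 to C3 control, K1 to K3 knockout, all panels on 1 axis) for the 6 cytokine genes below the expression filter. Il33 has 40 to 54 reads in knockout against 6 to 8 in control libraries; Tnf and Il1rn stay at 6 reads or fewer in all 6 libraries.

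When reads were fitted across all genes with at least 5 reads in at least 3 libraries (limma-voom with Benjamini-Hochberg adjustment, a test chosen after seeing the data), Il33 was higher in knockout cells. It had at least 5 reads in every library. Il1b and Il1a reached 5 reads in 1 control library each, so they entered this fit only through the knockout libraries, and their fitted values are a description. In that fit 16.1% of 14486 genes were higher and 18.7% lower. Its log2 change was 2.63 for Il33 (limma-voom, adjusted p = 3.24e-05), against fitted log2 changes of 2.50 for Il1b and 1.81 for Il1a. Leaving out any 1 library kept the call of Il33, with a limma-voom adjusted p of at most 0.000609. With limma on log2(FPKM + 1) and no expression filter every listed gene entered, and 6.5% of all genes were called higher and 7.88% lower. In that fit Il33 (limma adjusted p = 0.00242), Il1b (0.00981), Il1a (0.0331) and Il6 (0.0468) were higher. Il6 had only 1 read in each control library, under the level of 3 reads, so its call rests on values at the lower end of detection. In bulk RNA a change in the share of cells that make a transcript and a change in RNA per cell cannot be told apart.

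**Figure D3:**
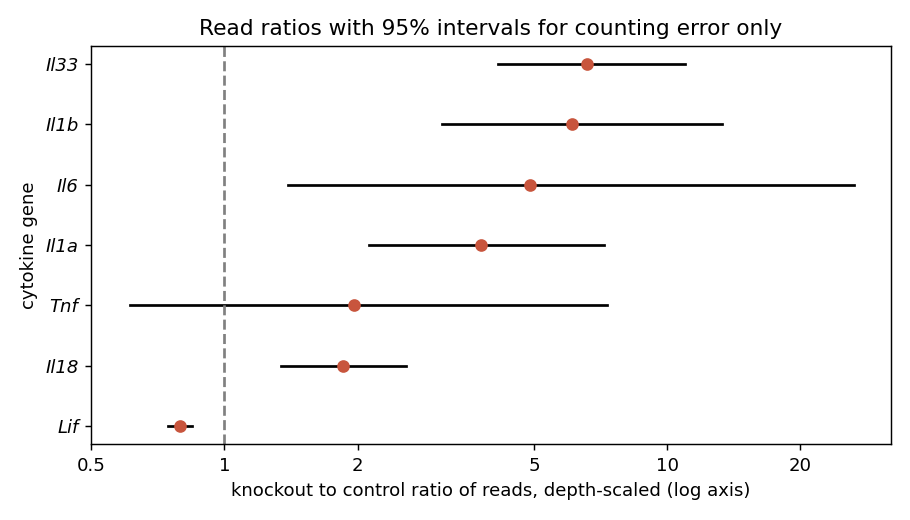
Knockout to control ratio of recovered reads, scaled for depth, for the 7 cytokine genes with whole read numbers and more than 3 reads in all; points are ratios, lines 95% exact intervals for counting error only, and the axis is logarithmic. The lines of Il33, Il1b, Il6, Il1a and Il18 lie above 1, that of Lif below 1, and that of Tnf spans 1.

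Among the 4 genes that passed the expression filter (at least 1 FPKM in at least 3 libraries), Tslp and Il18 were higher, Lif was lower, and Il11 did not pass the test. Il18 did not reach 1 FPKM in every control library, so it passed the filter only with the knockout libraries, and its call is a description. The fit was limma on log2(FPKM + 1) with Benjamini-Hochberg adjustment over 11171 genes at a threshold of 0.05. In it 16.9% of all genes were higher and 18.7% lower, and the groups did not overlap for 50.5%. With 2 of 4 higher and 1 of 4 lower, so few genes do not set the cytokines apart from that background. Log2 changes below are on the log2(FPKM + 1) scale, knockout minus control.

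Tslp encodes thymic stromal lymphopoietin, an epithelial cytokine that acts on dendritic and other myeloid cells through the receptor pair of Crlf2 and Il7r. The gene (ENSMUSG00000024379) lies at chr18:32815383-32819797 on the plus strand. Its level was 158, 157 and 152 FPKM in control libraries and 185, 184 and 237 FPKM in knockout libraries. The control libraries were tight, knockout replicates 1 and 2 lay close together, and knockout replicate 3 was well above them. The log2 change was 0.36 (SE 0.10, limma adjusted p = 0.0199), a ratio of 1.30. The direction was the same in every fit, but the limma adjusted p was 0.0541 to 0.0619 when any 1 control library was left out and 0.0671 without the expression filter. Without knockout replicate 3 the log2 change was 0.24 and the limma adjusted p 0.00391. Neighbouring genes had a median log2 change of -0.11, so centring on them moved the log2 change of Tslp up, to 0.48.

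Il18 encodes interleukin-18, like interleukin-1 beta a substrate of caspase-1. The gene (ENSMUSG00000039217) lies at chr9:50554827-50581840 on the plus strand. It measured 0.907, 1.25 and 1.04 FPKM in control and 1.27, 2.10 and 2.57 FPKM in knockout libraries, from 17, 23 and 20 reads and 25, 40 and 48 reads. Knockout replicate 1 lay just above control replicate 2, so the groups only narrowly avoided overlap. The log2 change was 0.51 (SE 0.16, limma adjusted p = 0.0381). This call was lost in 5 of 6 fits with a library left out (limma adjusted p 0.0598 to 0.124); without knockout replicate 1 the adjusted p was 0.0034. It was also lost with limma-voom on reads (adjusted p = 0.0535) and with limma without the expression filter (adjusted p = 0.11).

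Lif encodes leukaemia inhibitory factor, which signals through the receptor pair of Lifr and Il6st. The gene (ENSMUSG00000034394) lies at chr11:4257557-4272514 on the plus strand. Its level fell from 8.53, 9.17 and 8.92 FPKM in control libraries to 7.12, 7.07 and 6.93 FPKM in knockout libraries. The groups were tight and clearly apart, with 675 to 726 reads in control and 547 to 590 reads in knockout libraries. The log2 change was -0.30 (SE 0.06, limma adjusted p = 0.00388), a ratio of control to knockout of 1.26, and no left-out library ended the call. Neighbouring genes on chromosome 11 were lower too, with a median log2 change of -0.12, and the log2 change of Lif centred on them was -0.18 (limma adjusted p = 0.0445).

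Il11 encodes interleukin-11, a gp130 cytokine known in bone metastasis of breast cancer. The gene (ENSMUSG00000004371) lies at chr7:4772373-4782859 on the minus strand. It measured 1.07, 1.15 and 0.956 FPKM in control and 1.07, 0.671 and 0.932 FPKM in knockout libraries. The groups overlapped, and knockout replicate 2 was the lowest library. The log2 change was -0.13 (SE 0.10, limma adjusted p = 0.356).

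**Figure D4:**
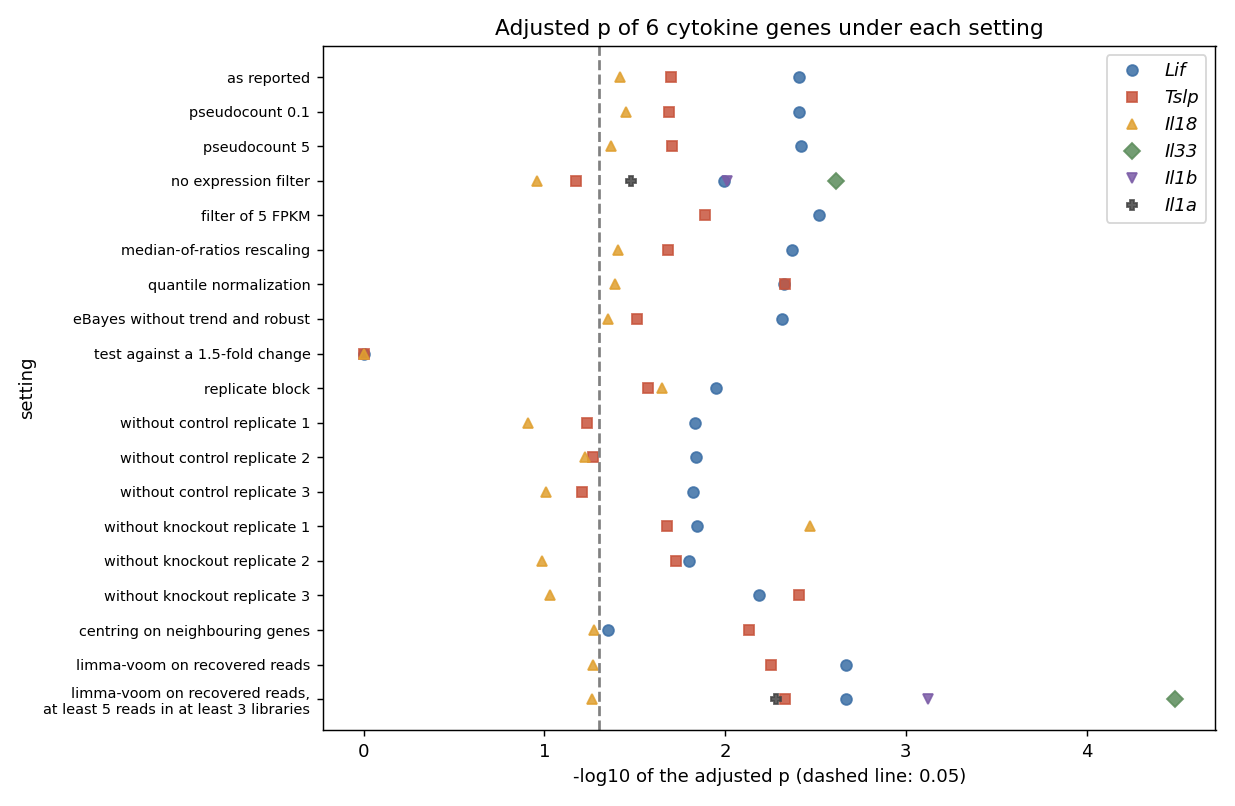
The -log10 of the adjusted p for 6 cytokine genes under each setting of the fit; points right of the dashed line have an adjusted p under 0.05, and genes that a setting did not test have no point. Il1a and Il1b entered limma-voom at 5 reads only through the knockout libraries. Il18 lies near or left of the line in many settings, and Lif right of it in all but the test against a 1.5-fold change.

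By the rule for likeness (the highest Pearson r of log2(FPKM + 1) over the 6 libraries, among tested genes averaging 5 FPKM or more), the genes nearest to Tslp were Birc5 (r = 0.999) and Cnbp (r = 0.998). Both, like Tslp, were higher in knockout cells by mean, at 54.0 ± 0.327 and 60.5 ± 3.68 FPKM for Birc5 and 148 ± 1.82 and 172 ± 15.4 FPKM for Cnbp (SD, n = 3). The nearest to Lif were Dym (r = 0.9996) and Ttc13 (r = 0.998), and to Il18 Prnp (r = 0.995) and 2610001J05Rik (r = 0.989). Klhl25 (r = 0.971) and Gas8 (r = 0.966) were nearest to Il11. The libraries form 2 groups, so a high r is easily reached: 484 of 7322 genes had r above 0.95 with Lif and 194 with Tslp, against 43 of 7323 with Il18 and 3 with Il11.

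Receptor transcripts for several of these cytokines were present in the same cells, and the gp130 gene Il6st was higher with the knockout. Of 11 tested receptor and decoy genes 2 rose, 2 fell and 7 did not pass (limma adjusted p under 0.05), shares near those of all tested genes, of which 16.9% rose and 18.7% fell. The median log2 change was 0.12 against -0.01 for all tested genes. Il6st rose from 20.3 ± 0.756 to 32.0 ± 2.94 FPKM (SD, n = 3; log2 change 0.63). Osmr, the oncostatin M receptor gene and the other one counted as higher, was at 0.786 ± 0.0771 and 2.33 ± 0.174 FPKM; every control library was below 1 FPKM, so it entered the fit only through the knockout libraries and its call is a description. Il6ra, the interleukin-6 binding subunit, measured 9.35 ± 0.728 and 10.3 ± 0.704 FPKM (limma adjusted p = 0.233). Il11ra1 was at 1.16 ± 0.119 and 1.40 ± 0.112 FPKM (limma adjusted p = 0.192). Lifr, which Lif needs, was listed at 0.0745, 0.0817 and 0.0621 FPKM in control libraries and at 0 in every knockout library.

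The interleukin-1 receptor gene Il1r1 fell from 19.1 ± 0.0734 to 17.0 ± 0.811 FPKM (SD, n = 3), with a log2 change of -0.16 (limma adjusted p = 0.0494). Sigirr, an inhibitory receptor of the family, fell from 16.5 ± 0.834 to 14.4 ± 0.744 FPKM (limma adjusted p = 0.0499). Both calls lay at the threshold: that of Il1r1 was lost in all 6 fits with a library left out, and that of Sigirr in 5 of 6. Il1rap, the partner chain of Il1r1, measured 2.08 ± 0.273 and 1.65 ± 0.087 FPKM (limma adjusted p = 0.083; 0.0224 with limma-voom on reads). Il1rl1, which encodes the interleukin-33 receptor ST2, was at 0.0319 FPKM in control replicate 1, 0.00784 FPKM in knockout replicate 2 and listed at 0 in the other libraries. Il18rap, a chain of the interleukin-18 receptor, was at 0.758, 0.816 and 0.783 FPKM in control and 0, 0.0240 and 0.0327 FPKM in knockout libraries. Lifr and Il18rap had all knockout libraries below all control libraries, as had 8.71% of the genes under the filter, a share not split by read level. So had Il1rl2, at 0.00807, 0.0165 and 0.0157 FPKM in control libraries and 0 in every knockout library. Il18rap and Il1rl2 were named after their values were seen. Of 18 genes in the receptor list 16 had values, and Il18r1 and Il7r were not among them.

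For the remaining receptors, Crlf2, the specific chain for thymic stromal lymphopoietin, measured 3.66 ± 1.02 and 2.39 ± 0.187 FPKM (limma adjusted p = 0.0645). Without control replicate 2 its log2 change was -0.63 with a limma adjusted p of 0.00147, and with limma-voom on reads the adjusted p was 0.0483. The tumour necrosis factor receptor genes Tnfrsf1a and Tnfrsf1b were at 27.5 ± 1.57 and 30.2 ± 1.14 FPKM and at 16.8 ± 1.503 and 19.6 ± 1.54 FPKM (limma adjusted p = 0.123 and 0.0721). For Tnfrsf1b limma-voom on reads gave an adjusted p of 0.0476, past the threshold.

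Of 8 tested genes for processing and release 3 rose, 1 fell and 4 did not pass, where 16.9% of all tested genes rose and 18.7% fell. One of the 3, the inflammatory caspase gene Casp4, was below 1 FPKM in every control library and entered the fit only through the knockout libraries, with 0.745 ± 0.113 and 2.21 ± 0.200 FPKM (SD, n = 3). Casp8 rose from 32.3 ± 0.466 to 38.0 ± 1.66 FPKM and Casp1 from 15.2 ± 1.099 to 18.4 ± 1.74 FPKM (SD, n = 3; limma adjusted p = 0.0329 for Casp1). The Casp1 call was lost without control replicate 1 (limma adjusted p = 0.12), control replicate 3 (0.0955) or knockout replicate 3 (0.0605), and after centring on neighbouring genes (0.13). Rhbdf2, which encodes a partner of the sheddase that releases tumour necrosis factor, fell from 9.24 ± 1.11 to 7.09 ± 0.201 FPKM. The inflammasome sensor Nlrp3 and the adaptor Pycard, named here after their values were seen, were at 0.0318 ± 0.0162 and 0.0384 ± 0.00764 FPKM in control cells and 0.0442 ± 0.0066 and 0.0521 ± 0.0222 FPKM with the knockout (SD, n = 3). The transcript of the caspase that cleaves interleukin-1 beta was thus well expressed, while those of this sensor and adaptor were near the lower end of the measurement.

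Of 17 genes for other ligands of these families 10 were in the table, and 7 of them stayed below 1 FPKM in every library.

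In the signalling list Jak2, Stat3 and the inhibitor gene Socs3 were higher, and 3 adaptor genes and a kinase gene of the interleukin-1 and tumour necrosis factor receptors were lower. Of 23 tested genes 5 rose, 4 fell and 14 did not pass, shares near the 16.9% and 18.7% of all tested genes, and the median log2 change was -0.05. Jak2, a kinase of cytokine receptors, rose from 57.1 ± 2.91 to 129 ± 1.87 FPKM (SD, n = 3; log2 change 1.16, limma adjusted p = 1.87e-06). Socs3, the feedback inhibitor that STAT3 induces, rose from 9.10 ± 0.834 to 18.5 ± 0.577 FPKM, and Stat3 itself from 9.98 ± 0.947 to 13.4 ± 0.611 FPKM. Socs1 and Irak2 were the other genes that rose (log2 changes 0.51 and 0.25; Irak2 was named after its value was seen). The adaptor genes Tradd (log2 change -0.50), Tab3 (-0.32) and Traf6 (-0.25) and the kinase gene Irak1 (-0.20) fell. After centring on neighbouring genes these 4 no longer passed (limma adjusted p 0.134, 0.0584, 0.149 and 0.175). The call of Tradd was also lost without control replicate 1 (0.0554) or 3 (0.0567), and that of Irak1 without control replicate 1 (0.0735) or knockout replicate 1 (0.0544).

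Of 19 tested regulators of cytokine genes 11 rose, 4 fell and 4 did not pass, where 16.9% of all tested genes rose and 18.7% fell. The median log2 change was 0.26. One of the 11, Cebpd, named after its values were seen, entered the fit only through the knockout libraries (0.362 ± 0.0172 and 1.34 ± 0.116 FPKM, SD, n = 3). Nfkbiz, which encodes an NF-kB cofactor needed for Il6 induction, rose from 3.81 ± 0.0701 to 17.6 ± 0.580 FPKM (SD, n = 3). Bcl3, a related cofactor gene, rose from 2.06 ± 0.189 to 8.26 ± 0.179 FPKM and Nfkbia, the NF-kB inhibitor and target gene, from 16.6 ± 0.920 to 48.6 ± 2.63 FPKM. Zc3h12a encodes an RNase that degrades Il6 mRNA, and it rose from 2.36 ± 0.301 to 8.24 ± 0.121 FPKM. Junb (log2 change -0.43), Zfp36l1 (-0.37), Rel (-0.24) and Atf3 (-0.44) fell, Atf3 being named after its value was seen. Those of Junb, Zfp36l1 and Rel no longer passed after centring on neighbouring genes (limma adjusted p 0.129, 0.368 and 0.484). The call of Rel was also lost when any 1 library other than knockout replicate 1 was left out (limma adjusted p 0.0905 to 0.128).

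Genes known to respond to interleukin-1, interleukin-6 and tumour necrosis factor made up the list with the largest shifts, 9 of 11 tested being higher and 1 lower, with a median log2 change of 2.17. Of all tested genes 16.9% were higher and 18.7% lower. Saa3 and Nos2, of the 9, were below 1 FPKM in every control library and entered the fit only through the knockout libraries. This list was chosen with results of these libraries known, so its direction is no independent evidence. Lcn2, Cxcl5, Cxcl1 and Csf3 rose most (log2 changes 6.48, 4.95, 4.24 and 2.63), and Ptgs2 fell (-0.90). Tnfaip3 did not pass (limma adjusted p = 0.104). The other 4 genes were below 1 FPKM in every library and were not tested. Among them Icam1 was lower, at 0.996, 0.697 and 0.796 FPKM in control and 0.337, 0.124 and 0.139 FPKM in knockout libraries. Hp and Steap4 were higher in every knockout library, and Csf2 overlapped. Tnfaip3 and these 4 were named after their values were seen. The 15 response genes summed to 183 to 189 FPKM in control and 1227 to 1422 FPKM in knockout libraries. Il1a, Il1b and Il33 together summed to 0.331 to 0.394 FPKM and 1.72 to 2.14 FPKM, and Tslp averaged 156 and 202 FPKM.

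**Figure D5:**
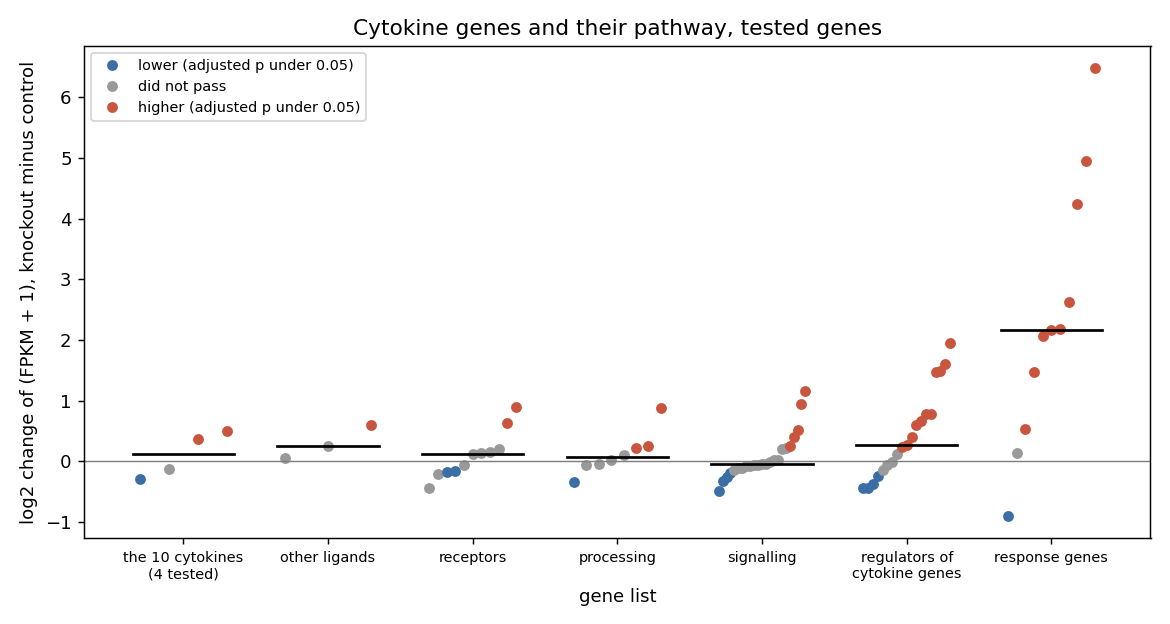
Log2 change of (FPKM + 1), knockout minus control, of every tested gene in the cytokine set and in 6 lists of its pathway; red points are higher and blue points lower at an adjusted p under 0.05, grey points did not pass, and black lines are medians. The response genes have a median of 2.17, and the other lists have medians between -0.05 and 0.26.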

How the data were processed

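RNA was extracted with Trizol and sequenced in 3 control and 3 knockout libraries, per the labels. The authors deposited 1 table of FPKM values, a unit read from the values themselves. Per the submitters' processing notes the tools included HTSeq 0.6.0, TopHat2 2.0.12, Bowtie2 and CASAVA, and the build was mm10; no source used here gives their roles, the strand setting or the annotation release. Identifiers were matched to GENCODE M21 (GRCm38, the assembly called mm10), and 23587 of 23644 had a symbol. FPKM times annotated exon length gave whole reads within 0.02 of a read for 92.0% to 92.3% of values up to 500 reads. The read totals are relative. Reads of Il11 and Tslp did not come out whole and are not given, but their rounded values entered limma-voom. The table holds no gene with 0 in all 6 libraries.

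The test was limma (version 3.58.1, R 4.3.3; eBayes using trend and robust) on log2(FPKM + 1), for genes that reached 1 FPKM in 3 or more libraries. Genes below it were tested with exact permutation tests, 6 of them; the adjustment over these 6 that the design named was not made. Scripts used Python 3.11.15. On simulated reads 97.3% of 73 genes changed 1.5-fold, 98.5% of 66 changed 2-fold and 100% of 61 changed 4-fold were recovered. That fit tested 10930 genes and made 20 false calls. The rates are not split by read level. Recovery at the low read numbers of Il18 and of the cytokines below the filter was not tested. Whether the rates hold at the spread of the replicate libraries given below was not tested either. The genes and lists were chosen with earlier results of these data known. Genes were named by a rule: the 10 cytokines, their receptor subunits, up to 4 called genes per list and direction that averaged 2 FPKM or more in the higher group, markers, and the 2 genes most like each tested cytokine. Reads of replicate libraries differed beyond sampling noise, with a chi-square per degree of freedom of 3.02 to 19.0. Alternatives are given in the closing section. A gene that the lists hold is not reported here.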

Additional observations from a re-analysis of the deposited data

How the results depend on the processing

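Alternatives were 2 other pseudocounts, no filter and a filter of 5 FPKM, 2 rescalings, plain eBayes, a test against a 1.5-fold change, a replicate block, each library left out, centring on neighbouring genes, and limma-voom on recovered reads with 2 filters, the last chosen after seeing the data. Over all genes 1886 were higher and 2087 lower; against a 1.5-fold change 118 and 193 were, and with 1 library left out 1182 to 2041 and 1358 to 2218, the lowest without control replicate 1. Of the cytokine genes 2 were higher and 1 lower, and Il18, of the 2, passed the filter only with the knockout libraries. The higher count was 4 without the filter, 1 with the filter of 5 FPKM, 1 after centring on neighbours, 1 with limma-voom on the same genes and 4 with limma-voom at 5 reads. It was 0 to 2 with 1 library left out: 0 without any 1 control library, 1 without knockout replicate 2 or 3. The lower gene, Lif, was called in all of these (count 1 to 1 with 1 library left out). Against a 1.5-fold change 0 were higher and 0 lower. Without the filter the 4 were Il33, Il1b, Il1a and Il6, and with limma-voom at 5 reads they were Tslp, Il33, Il1b and Il1a, of which Il1b and Il1a entered only through the knockout libraries. The reads of Tslp did not come out whole and were rounded for limma-voom. Over the 6 pathway lists 31 genes were higher and 12 lower; against a 1.5-fold change 14 and 1 were. After centring 5 were lower, without control replicate 1 7 were and without control replicate 3 8 were, and with 1 library left out 28 to 33 were higher and 7 to 11 lower. Log2 changes of Il6ra and Tnfrsf1a, which did not pass the test, reversed after centring, to -0.044 and -0.053. The cause of these differences was not tested.

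Same-numbered libraries deviated together with r = -0.06, 0.15 and 0.10, so the numbers were not taken to pair them. With the replicate block 2 cytokine genes were higher and 1 lower, 31 and 10 pathway genes were, and 1900 and 2127 of all genes; not every library correlated best with its own number. Depth limits Il6, Tnf and Il1rn, which had at most 6 reads in any library.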
